A study of Homo sapiens with 12 samples.

Results

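RNA-seq libraries of HepG2, a human hepatoma line, were compared after transfection with siRNA to UBL5 or with a non-targeting control. The 6 HepG2 libraries are taken from a series of 12, the rest being from the hepatoma line Huh7. Their counts were joined from a table of genes higher and a table of genes lower with the siRNA, which together list 17640 of the 20293 genes listed for either line. Every listed gene was kept, and 15755 had enough counts to be tested. Control-siRNA replicates 1 to 3 received a non-target siRNA and UBL5-siRNA replicates 1 to 3 an siRNA to UBL5, all by lipofectamine RNAiMAX in low glucose DMEM, with RNA taken at 52 h by the labels. The labels name 1 UBL5-siRNA with no sequence, so an effect of that siRNA on other transcripts cannot be told apart from loss of UBL5. Nor is it stated if the replicates were transfected separately, and the p-values therefore measure the spread between these libraries, which may be technical.

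UBL5 is a small ubiquitin-like protein that is not joined to other proteins as ubiquitin is. It binds spliceosome components, among them the tri-snRNP protein SART1, and its loss is known to impair the removal of introns and the cohesion of sister chromatids. It is also known from work on the mitochondrial unfolded protein response in worms and on the Fanconi anemia pathway in human cells. The comparison asks which transcripts of a liver tumor line differ once UBL5 is depleted.

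UBL5 mRNA was depleted in every library of the siRNA group. UBL5 (ENSG00000198258, chromosome 19 from 9827892 to 9830115) of GRCh38, a gene of 5 exons, had 60.4, 55.5 and 58.7 CPM with Control-siRNA and 6.88, 4.31 and 2.801 CPM with UBL5-siRNA, where CPM is the count scaled to a common library size with TMM factors. The siRNA libraries lay far below the Control-siRNA libraries, with no overlap. The log2 fold change was −3.63 (SE 0.262, adjusted p = 8.36e-05), where SE is the standard error and p comes from edgeR's quasi-likelihood test, adjusted over all 15755 genes, and −3.62 (adjusted p = 4.28e-05) when Control-siRNA replicate 3 was left out. SART1, the tri-snRNP partner of UBL5, had 70.8, 73.2 and 75.9 CPM with Control-siRNA and 82.7, 91.5 and 74.9 CPM with UBL5-siRNA. Its groups overlapped and its change of 0.18, adjusted p = 0.1905 did not pass the threshold of 0.05.

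Control-siRNA replicate 3 stood apart from the other 5 libraries. Counts over the gene lists are therefore given with and without it, and where a log2 fold change has its error, the value without this library (C3) follows. Other log2 fold changes are those of all 6 libraries. Of the 210 genes chosen by rule that were called with all 6 libraries, 205 were also called without C3, the others being AKR1B10, ALB, HNF4A, LZTS2 and PCK1. The rule favors such calls, since it takes extreme genes called in both fits and list members of smallest adjusted p. Control-siRNA replicate 3 had the most counts (29744471, against 19983681 to 25354410 in the others) and still no count for 1773 of the listed genes, where the others lacked 159 to 233. Of the 1498 genes with a mean of over 10 and up to 20 counts in the other Control-siRNA libraries, it had 0 counts for 614 (41.0%), and its 5th and 95th percentiles were 0 and 61 counts. In Control-siRNA replicate 2 these genes had percentiles of 8 and 21 counts, with 0 counts for none. Among the 1240 genes with a mean of over 100 and up to 200 counts, its 5th and 95th percentiles were 48 and 315 counts, against 94.0 and 189 in Control-siRNA replicate 2. The spread was therefore wider than in its group at both ends, and it narrowed as expression rose. For genes with a mean of 1 to 2 CPM, the SD of its log2 difference from the other Control-siRNA libraries was 1.01, against 0.577 and 0.560 for replicates 1 and 2 and 0.311 to 0.394 for the UBL5-siRNA libraries. At 100 CPM and above it was 0.200, within the range of 0.125 to 0.218 of the others. The column names of both libraries numbered 3 also lack the suffix that the other columns carry, and what this marks is not given in the sources used here.

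**Figure D1:**
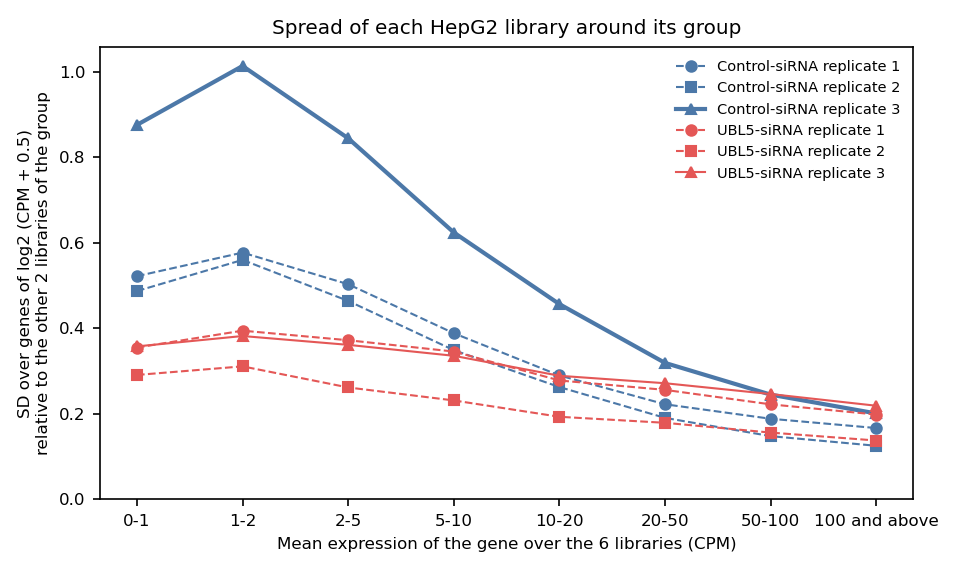
Scatter of each HepG2 library around the other 2 of its group. The vertical axis gives the SD over genes of log2 (CPM + 0.5) minus the mean of the other 2 libraries and the horizontal axis the mean expression in CPM, with 1 line per library. Control-siRNA replicate 3 peaks at 1.01 for genes of 1 to 2 CPM and falls to 0.200 at 100 CPM and above, where it meets the other lines.

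Genes with a mean of at least 10 CPM that differed most in Control-siRNA replicate 3 from its group were of 2 kinds. FOS, a subunit of the AP-1 transcription factor, had 7.62, 10.7 and 42.1 CPM with Control-siRNA and 35.9, 14.04 and 49.5 CPM with UBL5-siRNA. HSPA1A, the inducible heat shock protein 70, had 31.2, 39.4 and 133 CPM with Control-siRNA and 28.5, 28.7 and 111 CPM with UBL5-siRNA. CCN1, a matrix protein induced by serum and by YAP, had 129, 136 and 448 CPM with Control-siRNA and 142, 122 and 468 CPM with UBL5-siRNA. These 3 genes, DUSP1 and PCK1 were the 5 highest in Control-siRNA replicate 3 against the other Control-siRNA libraries, with log2 ratios of 1.54 to 2.14, and each was also higher in UBL5-siRNA replicate 3 than in the other UBL5-siRNA libraries, by 0.97 to 1.94. PCK1, the enzyme that commits carbon to glucose synthesis, was called lower with all 6 libraries (−1.73, adjusted p = 0.0319) and not without Control-siRNA replicate 3 (−1.0, adjusted p = 0.05399). The 5 lowest were BLZF1, EIF1P3, LARGE2, RPL5P24 and PHLDB3, with log2 ratios of −2.16 to −1.63. BLZF1, a Golgi protein gene, had 13.9, 12.5 and 2.56 CPM with Control-siRNA and 15.9, 14.2 and 17.4 CPM with UBL5-siRNA, and the value of Control-siRNA replicate 3 lay far below the other 5. UBL5-siRNA replicate 3 did not share the loss of BLZF1 and RPL5P24, with log2 ratios of 0.20 and 0.47. It was lower than its group for LARGE2 (−0.71), EIF1P3 (−0.31) and PHLDB3 (−0.27), by less than Control-siRNA replicate 3 was.

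With all 6 libraries, 2607 genes were higher and 3173 lower with UBL5-siRNA at an adjusted p under 0.05, which is 16.5% and 20.1% of those tested (36.7% in all). A change of at least 2-fold was found for 651 of the higher and 1003 of the lower genes. Without Control-siRNA replicate 3, 3378 of 16157 genes were higher (20.9%) and 3892 lower (24.1%), 45% in all, of which 1073 and 1306 changed by at least 2-fold. Of the 5773 genes called with all 6 libraries and testable in both fits, 2449 higher and 3047 lower genes were called in the same direction without that library, which is 95.2% of them and 77.6% of the 7080 called without it. None was called in opposite directions. Without UBL5-siRNA replicate 2, the number lower was 1985 and the number higher 1834. Leaving out Control-siRNA replicate 3 added most among weakly expressed genes. Under 2 CPM, 9.22% of genes were called with it and 27.8% without it, while at 50 CPM and above the shares were 51.0% and 51.9%. The values of the 2 groups did not overlap for 53% of all genes tested. In bulk RNA, fewer cells of a kind and less RNA per cell cannot be told apart.

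HAMP, KRTAP3-1 and MMP3 rose the most among protein-coding genes with a mean of at least 10 CPM. That mean is over all 6 libraries, so a gene low with Control-siRNA can pass through the UBL5-siRNA libraries. These 3 genes did, with Control-siRNA means of 6.08, 4.84 and 4.42 CPM. Of the 10 highest, only CHPF had a Control-siRNA mean above 10 CPM, of 40.1. The extreme genes were also chosen to be called in both fits with no overlap of the groups. HAMP (ENSG00000105697, chromosome 19 from 35280716 to 35285143) encodes hepcidin, the hormone that limits iron release into blood, and had 4.56, 6.82 and 6.85 CPM with Control-siRNA and 114, 156 and 173 CPM with UBL5-siRNA. All 3 UBL5-siRNA libraries were far above the controls, and the log2 fold change was 4.6 (SE 0.215, adjusted p = 2.31e-05), or 4.7 (adjusted p = 1.54e-05) without Control-siRNA replicate 3. KRTAP3-1 (ENSG00000212901, chromosome 17 from 41008521 to 41019324), a hair keratin-associated protein gene, had 6.36, 3.93 and 4.22 CPM with Control-siRNA and 50.7, 88.3 and 150.4 CPM with UBL5-siRNA, a log2 fold change of 4.31 (SE 0.402, adjusted p = 1.80e-04, 4.22 without C3). MMP3 (ENSG00000149968, chromosome 11 from 102835801 to 102843609), which encodes the matrix protease stromelysin, had 3.56, 6.74 and 2.96 CPM with Control-siRNA and 12.9, 62.9 and 108 CPM with UBL5-siRNA. The UBL5-siRNA libraries of MMP3 differed widely among themselves, and its log2 fold change was 3.81 (SE 0.693, adjusted p = 0.00314, 3.58 without C3). CYGB, the oxygen-binding cytoglobin, rose from 3.73 ± 0.912 to 38.5 ± 4.97 CPM (SD, n = 3) and LCN15, a lipocalin, from 6.01 ± 0.957 to 49.4 ± 3.09 CPM (SD, n = 3). The other 5 of the 10 highest were EIF4A1, a translation initiation helicase, C3orf52, NECTIN4, a cell adhesion protein, CHPF, which extends chondroitin chains, and THG1L, which modifies a transfer RNA, with log2 fold changes of 2.33 to 2.73. EIF4A1 shares 47.4% of its exon bases with other genes and is uncertain.

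UBL5 itself was the lowest of the protein-coding genes, followed by APOM, PRR11 and BHMT. APOM (ENSG00000204444, chromosome 6 from 31652416 to 31658210), an apolipoprotein that carries sphingosine 1-phosphate, had 142, 160.2 and 156 CPM with Control-siRNA and 27.6, 18.6 and 16.8 CPM with UBL5-siRNA. PRR11 (ENSG00000068489, chromosome 17 from 59155732 to 59206709), a gene of late cell cycle phases, had 139.98, 124 and 131 CPM with Control-siRNA and 23.9, 18.4 and 18.8 CPM with UBL5-siRNA. Both fell, by log2 fold changes of −2.86 (SE 0.178, adjusted p = 6.26e-05, −2.85 without C3) and −2.69 (SE 0.126, adjusted p = 2.31e-05, −2.7 without C3). BHMT (ENSG00000145692, chromosome 5 from 79111809 to 79132288), which remethylates homocysteine in the liver, had 14.1, 19.5 and 32.5 CPM with Control-siRNA and 2.56, 3.64 and 4.82 CPM with UBL5-siRNA. Control-siRNA replicate 3 was the highest of its group there, and the log2 fold change moved from −2.59 to −2.2 without it. SFXN2, a mitochondrial carrier gene, GCKR, the inhibitor of glucokinase, TRIOBP, an actin-bundling protein gene, TCF19, PRODH2, which degrades hydroxyproline, and AGR2, an endoplasmic reticulum (ER) disulfide isomerase, completed the 10 lowest, with log2 fold changes of −2.51 to −2.26. TRIOBP shares 33.8% of its exon bases with other genes.

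**Figure D2:**
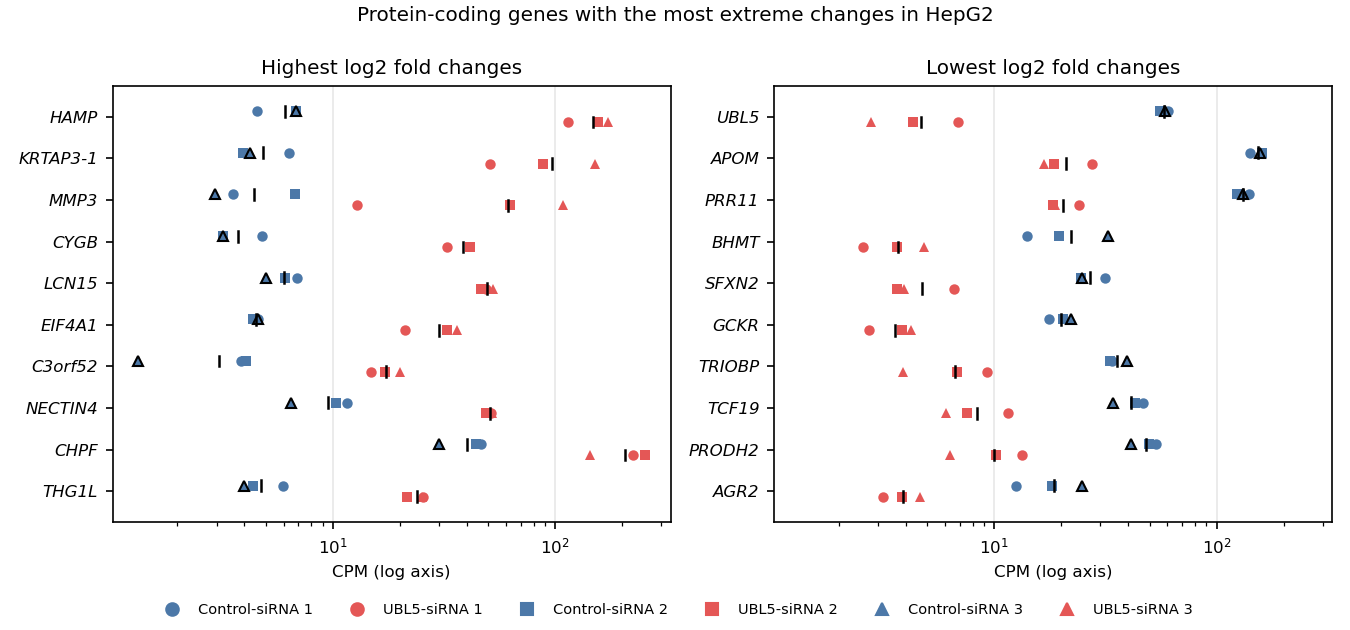
The 10 protein-coding genes with the highest (left) and the 10 with the lowest (right) log2 fold changes. The horizontal log axis gives CPM, each point is a library (shape gives the replicate, a black outline Control-siRNA replicate 3) and vertical ticks are group means. The 2 groups are separate in every gene drawn because the choice of genes required it. HAMP spans 4.56 to 6.85 CPM in the controls and 114 to 173 CPM with UBL5-siRNA.

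Among long noncoding RNAs (lncRNAs) with a mean of at least 2 CPM, the highest were AC007608.1 (4.72) and AC092053.3 (4.24), each with no count in Control-siRNA replicate 3. Both passed this mean only through the UBL5-siRNA libraries, with Control-siRNA means of 0.211 and 0.257 CPM. AC007608.1 had 0.383, 0.251 and 0 CPM with Control-siRNA and 4.100, 5.84 and 6.64 CPM with UBL5-siRNA. Without that library its log2 fold change fell to 4.08. UCKL1-AS1 (3.4), UCA1 (2.86) and AC027601.1 (2.64) followed, and the calls of all 3 were lost when at least 1 other library was left out. These 3 also passed the mean only through the UBL5-siRNA libraries, with Control-siRNA means of 0.438, 1.81 and 0.654 CPM. UCA1 was lost without Control-siRNA replicate 2 or UBL5-siRNA replicate 3, UCKL1-AS1 without UBL5-siRNA replicate 2 or 3, and AC027601.1 without any 1 library other than Control-siRNA replicate 3. AC027601.1 and UCA1 also share 32.6% and 27.9% of their exon bases with other genes. The lowest were AL357033.1 (−3.23), AJ009632.2 (−2.75), LINC01963 (−2.57), AL161891.1 (−2.4) and AC004233.2 (−2.4). Of these, only AJ009632.2 had a UBL5-siRNA mean above 2 CPM, of 3.69, and the others passed only through the Control-siRNA libraries. AJ009632.2 had 21.7, 25.4 and 27.1 CPM with Control-siRNA and 2.73, 3.81 and 4.51 CPM with UBL5-siRNA. Of all 1482 lncRNA genes tested, 8.64% were higher and 13.4% lower, and these shares rose to 17.0% and 22.2% without Control-siRNA replicate 3, while those of the 12009 protein-coding genes went from 19.3% and 23.8% to 22.6% and 27.1%. The median mean expression was 1.22 CPM for lncRNAs and 31.9 CPM for protein-coding genes.

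Lists of genes that share a role were described by their counts, beside the 16.5% of all genes that were higher and the 20.1% that were lower. In either direction, 9.22% of genes under 2 CPM were called, 47.2% at 10 to 50 CPM and 51.0% at 50 CPM and above. The shares of all genes are therefore a low mark for lists of well expressed genes. Genes of S phase entry and DNA replication were lower in large number. Of 44 members, 34 were lower, 0 higher and 10 did not pass, with a median log2 fold change of −0.85 with all 6 libraries and −0.98 without Control-siRNA replicate 3. Without that library 40 were lower, and 24 to 38 were when any other single library was left out. E2F1, the transcription factor that drives S phase genes, had 104, 94.7 and 86.6 CPM with Control-siRNA and 30.4, 23.3 and 18.5 CPM with UBL5-siRNA. CDC45, part of the replicative helicase, had 53.3, 50.2 and 39.97 CPM with Control-siRNA and 14.9, 8.99 and 9.18 CPM with UBL5-siRNA. RRM2, the regulated subunit of ribonucleotide reductase, had 471, 419 and 384 CPM with Control-siRNA and 190.2, 159 and 143 CPM with UBL5-siRNA. In all 3 genes the 2 groups were separate, and the log2 fold changes were −1.98 (SE 0.173, adjusted p = 1.45e-04, −2.04 without C3), −2.11 (SE 0.214, adjusted p = 2.43e-04, −2.23 without C3) and −1.37 (SE 0.122, adjusted p = 1.55e-04, −1.44 without C3). RRM1, the catalytic subunit, fell by 1.3 on the log2 scale. Of the helicase ring, MCM2 (−0.28), MCM3 (−0.33) and MCM6 (−0.59) did not pass with all 6 libraries, MCM3 and MCM6 were called lower without Control-siRNA replicate 3 (adjusted p = 0.0268 and 0.0141) and with the replicate block (adjusted p = 0.00556 and 0.00163), and MCM4 (−1.12), MCM5 (−0.93) and MCM7 (−1.31) fell.

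Mitotic genes and genes of homologous recombination also fell. Of 51 mitotic genes, 29 were lower and 0 higher, with a median of −0.46 with all 6 libraries and −0.54 without Control-siRNA replicate 3, where 31 were lower and 0 higher. With the replicate number as a block 33 were lower and 2 higher, and 1 was higher without Control-siRNA replicate 1. KIF23, a kinesin of the central spindle, had 97.5, 78.1 and 70.5 CPM with Control-siRNA and 29.5, 24.1 and 23.4 CPM with UBL5-siRNA, a log2 fold change of −1.67 (SE 0.149, adjusted p = 1.55e-04, −1.77 without C3). TPX2, which activates the kinase Aurora A, fell from 422 ± 48.4 to 186 ± 14.7 CPM (SD, n = 3), and NCAPG, a condensin subunit that shares 33.7% of its exon bases with other genes, had −1.28. In the list of Fanconi anemia and homologous recombination genes, which repair DNA crosslinks and breaks, 20 of 28 members were lower and 1, RAD51C, was higher (0.73). The median was −0.69 with all 6 libraries and −0.74 without Control-siRNA replicate 3, where 23 were lower. Without UBL5-siRNA replicate 2 the number lower was 13. BRCA1 had 96.5, 81.9 and 66.8 CPM with Control-siRNA and 27.9, 19.4 and 16.8 CPM with UBL5-siRNA, with no overlap and a log2 fold change of −1.93 (SE 0.205, adjusted p = 2.80e-04, −2.06 without C3). FANCD2, the protein that is ubiquitylated at crosslinks, FANCL, the ligase that does so, and RBBP8, which starts resection, fell by 1.22, 1.72 and 1.11 on the log2 scale. XRCC3, a gene of homologous recombination, had −1.35, adjusted p = 0.00113, but shares 76.7% of its exon bases with other genes.

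Promoters of these lists were searched for letters that regulators of the cell cycle are known to bind. E2F proteins are known to bind the letters TTTCGCGC or TTTGGCGC. The cell cycle homology region, a stretch of mitotic promoters, is known to hold the letters TTTGAA. Both sets of letters were searched on both strands in RefSeq promoters of GRCh38.p14 (windows that span the gene start, the first listed for a gene). The E2F letters were in 12 of the 37 replication genes with a promoter in the table (32.4%), against 2.07% of 9769 protein-coding genes tested and 1.15% of all 35116 promoters. The TTTGAA letters were in 30 of 44 mitotic genes (68.2%), against 9.79% of protein-coding genes tested and 15.2% of all promoters. Of the 26 Fanconi anemia and homologous recombination genes with a promoter, 2 held the E2F letters and 4 held TTTGAA. Within the replication genes, 8 of 12 with the E2F letters were lower and 20 of 25 without them, and within the mitotic genes 15 of 30 with TTTGAA and 10 of 14 without it. Over all protein-coding genes with a promoter, the E2F letters were in 3.08% of those called lower and 1.53% of those called higher. TTTGAA was in 11.8% and 9.09%. The lists were made by role, so their shares describe the lists, and a part of these letters in the change was not tested. The lines give, for each set, 3 of the lower members that hold the letters, 5′ to 3′ on the strand of the gene, with the letters searched in capitals.
E2F1, chr20:33686382-33686421, minus strand: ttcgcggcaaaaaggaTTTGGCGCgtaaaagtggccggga
CDC6, chr17:40287870-40287909, plus strand: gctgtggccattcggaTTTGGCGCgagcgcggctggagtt
MCM7, chr7:100101383-100101422, minus strand: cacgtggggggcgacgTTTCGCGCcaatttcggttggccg
PRR11, chr17:59155719-59155756, plus strand: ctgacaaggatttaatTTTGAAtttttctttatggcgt
NCAPG, chr4:17810928-17810965, plus strand: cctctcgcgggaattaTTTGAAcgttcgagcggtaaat
KIF23, chr15:69414278-69414315, plus strand: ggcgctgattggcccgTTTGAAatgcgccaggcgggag

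Targets of p53, the transcription factor that halts the cycle or kills the cell after damage, rose. HepG2 is known to carry the wild-type gene of p53. Of 35 members, 21 were higher and 3 lower, with a median of 0.69 with all 6 libraries and 0.7 without Control-siRNA replicate 3, where 22 were higher. ZMAT3, an RNA-binding zinc finger protein, had 38.1, 40.6 and 34.8 CPM with Control-siRNA and 102, 100.9 and 117 CPM with UBL5-siRNA. MDM2, the ligase that degrades p53, had 242, 227 and 229.8 CPM with Control-siRNA and 408, 455 and 481 CPM with UBL5-siRNA. CDKN1A, the p21 inhibitor of cyclin-dependent kinases, had 198, 265 and 281 CPM with Control-siRNA and 399, 523 and 575 CPM with UBL5-siRNA. The groups were separate in all 3, and the log2 fold changes were 1.5 (SE 0.104, adjusted p = 7.23e-05, 1.44 without C3), 0.94 (SE 0.0846, adjusted p = 1.56e-04, 0.93 without C3) and 1.01 (SE 0.164, adjusted p = 0.00185, 1.11 without C3). TRIAP1, a mitochondrial lipid transfer protein, and TNFRSF10B, a receptor of the death ligand TRAIL, rose by 1.2 and 0.85. The 3 members that fell were XPC (−1.03), SPATA18 (−0.77) and FBXO22 (−0.3), the last of which was not called without Control-siRNA replicate 3 (−0.28, adjusted p = 0.05004). Without UBL5-siRNA replicate 2 or 3, 1 member was lower. With single libraries left out, the adjusted p of SPATA18 reached 0.0861. TP53I3 (−0.07) and BAX (0.16) did not pass the test.

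Regulators of cell death moved in both directions. In the BCL2 family, 6 of 17 members were higher and 5 lower in both fits. BBC3, the p53-induced killer PUMA, had 8.08, 8.08 and 6.28 CPM with Control-siRNA and 24.1, 28.7 and 18.9 CPM with UBL5-siRNA, and BMF, another BH3-only protein, rose from 3.26 ± 0.715 to 10.8 ± 2.35 CPM (SD, n = 3). BCL2L13, a mitochondrial member, had 57.8, 63.4 and 67.6 CPM with Control-siRNA and 26.6, 26.1 and 26.8 CPM with UBL5-siRNA, and BCL2L2 (24.8% of exon bases shared) and MCL1, both survival proteins, had log2 fold changes of −0.78 and −0.66. The number higher was 3 without Control-siRNA replicate 1 or 2 or without UBL5-siRNA replicate 2. Of 23 caspases, adaptors and inhibitors of apoptosis, 3 were higher and 7 lower, and 4 and 7 without Control-siRNA replicate 3. XIAP, which blocks caspases, had 62.9, 62.7 and 61.2 CPM with Control-siRNA and 32.5, 34.5 and 38.1 CPM with UBL5-siRNA, and CFLAR, which blocks caspase 8, rose by 0.69. The number lower was 4 without Control-siRNA replicate 1 or without UBL5-siRNA replicate 2 or 3, and the number higher was 1 without Control-siRNA replicate 2. Of 18 death receptor genes, 5 were higher and 1 lower (6 and 1 without C3), with TNFRSF1A, a receptor of TNF, at 1.07 and TNFRSF10D, a decoy receptor of TRAIL, at 1.5. Of 17 genes that regulate ferroptosis, a death by lipid peroxidation, 7 were higher and 0 lower (8 and 0), among them ACSL4 (0.71), which primes membranes for it. In that list 1 member was lower without UBL5-siRNA replicate 3 and with the replicate block.

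Stress genes of the ER and mitochondria moved in both directions. Of 29 targets of ATF4 and CHOP, the transcription factors of the PERK arm, 13 were lower and 4 higher, with a median of −0.15 with all 6 libraries and −0.14 without Control-siRNA replicate 3, where 12 were lower and 4 higher. PHGDH, the first enzyme of serine synthesis, had 173, 189 and 189 CPM with Control-siRNA and 87.5, 83.6 and 71.4 CPM with UBL5-siRNA. SHMT2, which takes serine into the folate cycle in mitochondria, had 372, 435 and 407 CPM with Control-siRNA and 216, 209 and 198 CPM with UBL5-siRNA. Both fell without overlap, by log2 fold changes of −1.18 (SE 0.0994, adjusted p = 1.29e-04, −1.16 without C3) and −0.96 (SE 0.08495, adjusted p = 1.55e-04, −0.96 without C3), as did PCK2 (−1.13), whereas SESN2, which is also a p53 target, rose by 0.94. ATF4 itself had −0.02 and did not pass. Without UBL5-siRNA replicate 2, 8 were lower. Among 28 ER chaperones and degradation factors, 6 were higher and 3 lower (7 and 3 without C3), and 1 was lower without Control-siRNA replicate 2 or UBL5-siRNA replicate 2, with ATF6, a sensor of unfolded protein, at 0.86 and EDEM1, which directs misfolded glycoproteins to degradation, at −0.97. HSPA5, the chief ER chaperone, had 0.29, adjusted p = 0.0729, and was called higher without Control-siRNA replicate 3 (0.38, adjusted p = 0.0301) and with the replicate block (adjusted p = 0.0458). Of 17 mitochondrial chaperones and proteases, 7 were lower and 2 higher (7 and 3), with DNAJA3 at −0.89, TRAP1 (28.5% of exon bases shared) at −0.8 and the protease subunit CLPP at 0.78. The number lower was 4 without UBL5-siRNA replicate 2, and the number higher was 1 without Control-siRNA replicate 2 or UBL5-siRNA replicate 3 and 4 with the replicate block.

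Splicing factors rose more often than they fell. Of 38 genes of the U1 and U2 particles and the catalytic spliceosome, 16 were higher and 0 lower, with a median of 0.37 with all 6 libraries and 0.34 without Control-siRNA replicate 3, where 17 were higher and 0 lower. With the replicate block 20 were higher and 1 lower. SF3B1, which holds the branch site, had 542, 522 and 544 CPM with Control-siRNA and 924, 891 and 992 CPM with UBL5-siRNA, a log2 fold change of 0.8 (SE 0.0717, adjusted p = 1.55e-04, 0.81 without C3). SF3B4 of the same complex rose by 0.75, and the helicases DHX8 and DHX38 by 0.65 and 0.71. Of 22 tri-snRNP genes, 7 were higher and 2 lower (7 and 1 without Control-siRNA replicate 3). The number lower was 0 without Control-siRNA replicate 1 or UBL5-siRNA replicate 2 and 1 without Control-siRNA replicate 2 or UBL5-siRNA replicate 3. SNRNP27, a component of the tri-snRNP, had 11.4, 11.1 and 11.7 CPM with Control-siRNA and 43.4, 45.1 and 46.3 CPM with UBL5-siRNA, with tight groups and no overlap, and PRPF3 rose from 41.7 ± 4.57 to 105 ± 9.84 CPM (SD, n = 3). Among 30 SR proteins, hnRNPs and their kinases, 16 were higher and 2 lower (15 and 2), with HNRNPD at 1.08 and SRSF3 at 0.47, and the number lower was 1 without UBL5-siRNA replicate 2 and 4 with the replicate block. In the minor spliceosome, which removes a rare class of introns, 4 of 14 were higher and 2 lower in both fits, with TXNL4B at 1.0 and ZCRB1 at −1.04.

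Transcripts that nonsense-mediated decay is known to limit and genes of translation followed. Of 22 host genes of small nucleolar RNAs, 9 were higher and 0 lower (10 and 1 without Control-siRNA replicate 3 and likewise with the replicate block). SNHG3 had 37.8, 37.6 and 25.4 CPM with Control-siRNA and 105, 152 and 197 CPM with UBL5-siRNA, with no overlap and a log2 fold change of 2.17 (SE 0.239, adjusted p = 3.15e-04, 2.0 without C3), and SNHG17, SNHG19 and SNHG10 had 1.16, 1.25 and 1.04. Factors of that decay were mixed, with 4 of 18 higher and 5 lower (4 and 7). Of 75 cytosolic ribosomal protein genes, 37 were higher and 0 lower (33 and 0), with a median of 0.28 with all 6 libraries and 0.25 without Control-siRNA replicate 3. Without Control-siRNA replicate 2 the number was 22. RPS27 and RPS28 had log2 fold changes of 1.92 and 1.62, and near-identical pseudogenes make both uncertain. Of the 15 mitochondrially encoded genes, 13 were higher and 0 lower (12 and 0), with MT-RNR2, the large ribosomal RNA, at 1.09 (SE 0.107, adjusted p = 2.20e-04, 1.14 without C3). Their share of all counts was 1.91 to 2.35% with Control-siRNA and 2.75 to 3.61% with UBL5-siRNA, and its part in the other results was not tested.

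Genes of amino acid breakdown and fatty acid oxidation were lower more often than higher. Of 37 genes of amino acid breakdown and the urea cycle, 20 were lower and 1, CPS1, was higher (0.61), with a median of −0.5 with all 6 libraries and −0.46 without Control-siRNA replicate 3, where 21 were lower and 2 higher. The number higher was 3 without UBL5-siRNA replicate 1 or with the replicate block. MCCC1, of leucine breakdown, had 28.8, 27.7 and 27.8 CPM with Control-siRNA and 10.2, 7.12 and 6.23 CPM with UBL5-siRNA. AGXT, which clears glyoxylate, had 44.96, 48.7 and 41.96 CPM with Control-siRNA and 21.8, 18.2 and 16.3 CPM with UBL5-siRNA. Both fell without overlap, with log2 fold changes of −1.83 (SE 0.185, adjusted p = 2.42e-04, −1.84 without C3) and −1.27 (SE 0.135, adjusted p = 2.80e-04, −1.32 without C3). HPD of tyrosine breakdown and ALDH4A1 of proline breakdown fell by 0.93 and 1.04. Of 31 genes of fatty acid oxidation and peroxisomes, 12 were lower and 3 higher (15 and 3 without Control-siRNA replicate 3). CAT, the catalase of peroxisomes, had 162, 165 and 175 CPM with Control-siRNA and 81.7, 64.7 and 68.8 CPM with UBL5-siRNA, and EPHX2, a lipid epoxide hydrolase, fell from 16.3 ± 3.12 to 3.39 ± 0.611 CPM (SD, n = 3). ACSL1, which activates fatty acids, rose by 0.72. Of 28 genes of glucose metabolism, 11 were lower and 2 higher (10 and 4), with GCKR, PKLR, the liver pyruvate kinase, and PYGL, the liver glycogen phosphorylase, at −2.48, −1.8 and −0.82. The number lower was 7 without Control-siRNA replicate 2 or UBL5-siRNA replicate 2, and the number higher was 1 without Control-siRNA replicate 1 or UBL5-siRNA replicate 2 or 3.

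Cholesterol synthesis genes were higher more often than lower. Of 25 members, 13 were higher and 1, LSS, was lower, with a median of 0.38 with all 6 libraries and 0.49 without Control-siRNA replicate 3, where 15 were higher. HMGCS1, which makes the precursor of mevalonate and shares 37.7% of its exon bases with other genes, had 169.6, 224 and 222 CPM with Control-siRNA and 375, 525 and 579 CPM with UBL5-siRNA. LSS, which closes the sterol rings, had 128, 165 and 158 CPM with Control-siRNA and 69.9, 75.2 and 59.1 CPM with UBL5-siRNA. The groups were separate in both genes, with log2 fold changes of 1.27 (SE 0.169, adjusted p = 7.38e-04, 1.32 without C3) and −1.14 (SE 0.129, adjusted p = 3.49e-04, −1.1 without C3). SREBF2, the transcription factor that drives this pathway, rose by 0.48 (SE 0.0988, adjusted p = 0.00555, 0.49 without C3). Fatty acid and triglyceride synthesis was split, with 8 of 25 members higher and 7 lower (7 and 7). DGAT2, the last enzyme of triglyceride synthesis, rose by 1.07, and MLXIPL, the glucose-sensing factor ChREBP, FADS1, a desaturase, and LPIN2, a phosphatidate phosphatase, fell by 1.48, 0.91 and 1.09. FASN, fatty acid synthase, had 485, 626 and 605 CPM with Control-siRNA and 864, 1187 and 698 CPM with UBL5-siRNA. The groups did not overlap, and its log2 fold change of 0.68 (SE 0.182, adjusted p = 0.0184, 0.72 without C3) lost its call without Control-siRNA replicate 1 (adjusted p = 0.05901).

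Secreted liver proteins and hepatocyte regulators changed gene by gene. Of 25 plasma protein genes, 9 were higher and 4 lower (7 and 3 without Control-siRNA replicate 3), and 2 were lower without Control-siRNA replicate 2 or without UBL5-siRNA replicate 1 or 2. RBP4, the carrier of retinol, had 377, 381 and 363 CPM with Control-siRNA and 783, 764 and 781 CPM with UBL5-siRNA, and AHSG, fetuin A, fell from 5051 ± 338 to 2805 ± 329.9 CPM (SD, n = 3). The acute phase proteins ORM1 and HP rose by 1.14 and 1.51. Among 19 apolipoprotein genes, 4 were higher and 3 lower (5 and 3), with APOM and ANGPTL8, a regulator of lipoprotein lipase, at −2.86 and −1.53 and APOH and APOA1 at 0.65 and 0.53. Of 32 complement and coagulation genes, 7 were higher and 6 lower (9 and 8), with C6 at −1.98 and coagulation factor F10 at 0.64. Xenobiotic genes numbered 6 higher and 7 lower of 30. Leaving out Control-siRNA replicate 3 gave 11 higher and 8 lower, and the fit with the replicate number as a block gave 10 and 9. GSTA1 and UGT2B10, both conjugating enzymes, rose by 1.41 and 1.23, and GSTA4 had −2.1. Of 31 hepatocyte transcription factors and nuclear receptors, 7 were higher and 5 lower (8 and 6), with PROX1 at 0.87 and PPARA, a driver of fatty acid oxidation, at −0.87. The number higher was 2 without Control-siRNA replicate 2, 4 without Control-siRNA replicate 1, 3 without UBL5-siRNA replicate 1 or 2 and 11 with the replicate block, and the number lower was 2 without UBL5-siRNA replicate 2.

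Transcription of HAMP is known to be driven by BMP receptors and SMAD proteins. In the mixed list of iron and BMP genes, 17 of 33 were higher and 1 lower, with a median of 0.35 with all 6 libraries and 0.36 without Control-siRNA replicate 3, where 20 were higher and 2 lower. None was lower without UBL5-siRNA replicate 1 or 2, and 2 were without Control-siRNA replicate 1 or with the replicate block. ID1, a standard target of BMP, had 194, 194 and 167 CPM with Control-siRNA and 579, 668 and 503 CPM with UBL5-siRNA. ID3, another, had 90.00, 94.9 and 73.05 CPM with Control-siRNA and 218, 224 and 196 CPM with UBL5-siRNA. STEAP3, which reduces iron in endosomes, had 11.2, 12.2 and 7.95 CPM with Control-siRNA and 54.9, 49.9 and 38.4 CPM with UBL5-siRNA. The groups were separate in all 3, with log2 fold changes of 1.66 (SE 0.118, adjusted p = 7.69e-05, 1.59 without C3), 1.31 (SE 0.114, adjusted p = 1.45e-04, 1.2 without C3) and 2.19 (SE 0.196, adjusted p = 1.55e-04, 2.03 without C3). The feedback inhibitors SMAD6 and SMAD7, which BMP and TGF-beta also induce, rose by 1.57 and 0.82, and TFRC, the transferrin receptor, by 0.63. The type II receptor BMPR2 was the member that fell (−0.46), with an adjusted p of up to 0.0679 when single libraries were left out.

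Outputs of TGF-beta and YAP, beta-catenin and NF-kB were higher more often than lower. Of 26 TGF-beta, YAP and matrix genes, 9 were higher and 3 lower (11 and 4 without Control-siRNA replicate 3). SKIL, a feedback repressor of SMAD, had 22.7, 18.3 and 16.7 CPM with Control-siRNA and 77.4, 80.9 and 87.6 CPM with UBL5-siRNA. TGFB1, the ligand, had 23.8, 27.4 and 20.9 CPM with Control-siRNA and 69.00, 90.1 and 73.9 CPM with UBL5-siRNA. THBS1, a matrix protein that activates it, rose from 359.8 ± 16.04 to 1033 ± 169 CPM (SD, n = 3), with log2 fold changes for these 3 of 2.09 (SE 0.133, adjusted p = 6.26e-05, 1.99 without C3), 1.69 (SE 0.142, adjusted p = 1.27e-04, 1.6 without C3) and 1.52 (SE 0.115, adjusted p = 9.23e-05, 1.56 without C3). CCN1 and CCN2, both YAP targets, had 0.03 and −0.06 and did not pass, and the log2 fold change of CCN1 was 0.88 (adjusted p = 0.165) without Control-siRNA replicate 3. Of 22 beta-catenin targets, 10 were higher and 2 lower (10 and 3), with ZNRF3 and RNF43 (69.0% of exon bases shared), ligases that remove Wnt receptors, at 1.02 and 0.91, GLUL, glutamine synthetase, at 0.7 and TCF7 at −1.15, and 1 was lower without UBL5-siRNA replicate 2. Of 23 NF-kB and acute phase outputs, 7 were higher and 2 lower (10 and 3), with ICAM1 (25.4% shared), an adhesion receptor, and NFKBIA, the inhibitor of NF-kB, at 1.03 and 0.77. Without UBL5-siRNA replicate 2 none was lower, and 1 was without Control-siRNA replicate 1 or UBL5-siRNA replicate 3. Of 29 interferon-stimulated genes, 10 were lower, 4 higher and 15 did not pass (13 lower and 5 higher without C3). OAS3, an RNA sensor enzyme, had 103, 111 and 116 CPM with Control-siRNA and 42.1, 36.7 and 35.1 CPM with UBL5-siRNA, and IFI35 and STAT2 had −1.69 and −0.75. Those lower numbered 5 without UBL5-siRNA replicate 2 and 6 without UBL5-siRNA replicate 3.

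Immediate early and ERK feedback genes depended on Control-siRNA replicate 3. With all 6 libraries, 8 of 30 were higher and 4 lower. Without it 16 were higher and 4 lower, and with the replicate number as a block 13 and 4. Those lower numbered 2 without any 1 of the UBL5-siRNA libraries. DUSP1, a phosphatase of MAP kinases, had 31.9, 36.2 and 113 CPM with Control-siRNA and 81.5, 64.2 and 149.7 CPM with UBL5-siRNA. The groups overlapped only through Control-siRNA replicate 3, and the log2 fold change went from 0.7, adjusted p = 0.299 to 1.53 (adjusted p = 0.00317) without it and 0.85 (adjusted p = 0.00719) with the replicate block. FOS went from 0.71, adjusted p = 0.423 to 1.85 (adjusted p = 0.00746) without that library. With the replicate block FOS was not called (0.91, adjusted p = 0.0926). FOS and DUSP1 were also higher in UBL5-siRNA replicate 3 than in its group, by log2 ratios of 0.97 and 1.03. The fit without Control-siRNA replicate 3 therefore keeps a library numbered 3 in the UBL5-siRNA group only. JUNB, another AP-1 subunit, had 10.2, 8.998 and 11.9 CPM with Control-siRNA and 23.1, 18.4 and 17.7 CPM with UBL5-siRNA and rose in both fits, by 0.93 and 1.04, as did PHLDA1 (0.76 and 0.87) and FOSL1 (0.71 and 0.73). Cytosolic heat shock genes were 7 higher and 2 lower of 21, and 9 and 2 without that library, with HSPA4L, an HSP110 relative, at 0.96 and HSP90AA1 at 0.38. The number lower was 0 without UBL5-siRNA replicate 2 and 1 without Control-siRNA replicate 1 or 2. HSPA1A had −0.28 with all 6 libraries and 0.66 without it, neither past the threshold, and was called lower only with the replicate block (−0.28, adjusted p = 0.0452).

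The remaining lists were mixed. Of 27 targets of NRF2, the regulator of antioxidant genes, 12 were higher and 6 lower (12 and 5 without Control-siRNA replicate 3), with AKR1C2 at 1.39, HMOX1, which degrades heme, at 1.33 and NQO1 at −0.49. Autophagy and lysosome genes were 6 higher and 6 lower of 33 (5 and 7), among them ATG16L1, which places LC3 on membranes, and OPTN, an autophagy receptor, at −1.42 and −1.21 and LAMP2 and LAMP1 at 0.65 and 0.59. ATG16L1 had 138, 149 and 159 CPM with Control-siRNA and 53.6, 55.99 and 57.5 CPM with UBL5-siRNA, with no overlap. Proteasome genes were 4 higher and 6 lower of 35 (5 and 7), with PSMB4, of the catalytic core, at −0.85. The number higher was 1 without Control-siRNA replicate 1 and 2 without Control-siRNA replicate 2 or UBL5-siRNA replicate 2 or 3, and the number lower was 3 without UBL5-siRNA replicate 2. Cohesion genes were 4 higher and 5 lower of 15 in both fits, and 3 were lower without Control-siRNA replicate 1 or without UBL5-siRNA replicate 2 or 3, with the acetyltransferases ESCO1 and ESCO2 at 0.9 and −1.18. CDCA5, sororin, had 124, 108 and 100.4 CPM with Control-siRNA and 90.7, 79.3 and 61.8 CPM with UBL5-siRNA and a log2 fold change of −0.52 (SE 0.146, adjusted p = 0.0223, −0.59 without C3), a call that was lost without Control-siRNA replicate 1 or 2 or UBL5-siRNA replicate 2 or 3. LZTS2 had 0.52, adjusted p = 0.0352, and lost its call without Control-siRNA replicate 3 (adjusted p = 0.0584) or 2, or UBL5-siRNA replicate 1 or 2. Of 20 ubiquitin and ubiquitin-like genes, 6 were higher and 2, UBL5 and URM1 (−0.97), were lower (8 and 2). Nuclear genes of the respiratory chain were 9 higher and 8 lower of 41 (6 and 8), and the number lower was 2 without UBL5-siRNA replicate 2 and 5 without Control-siRNA replicate 1 or 2.

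**Figure D3:**
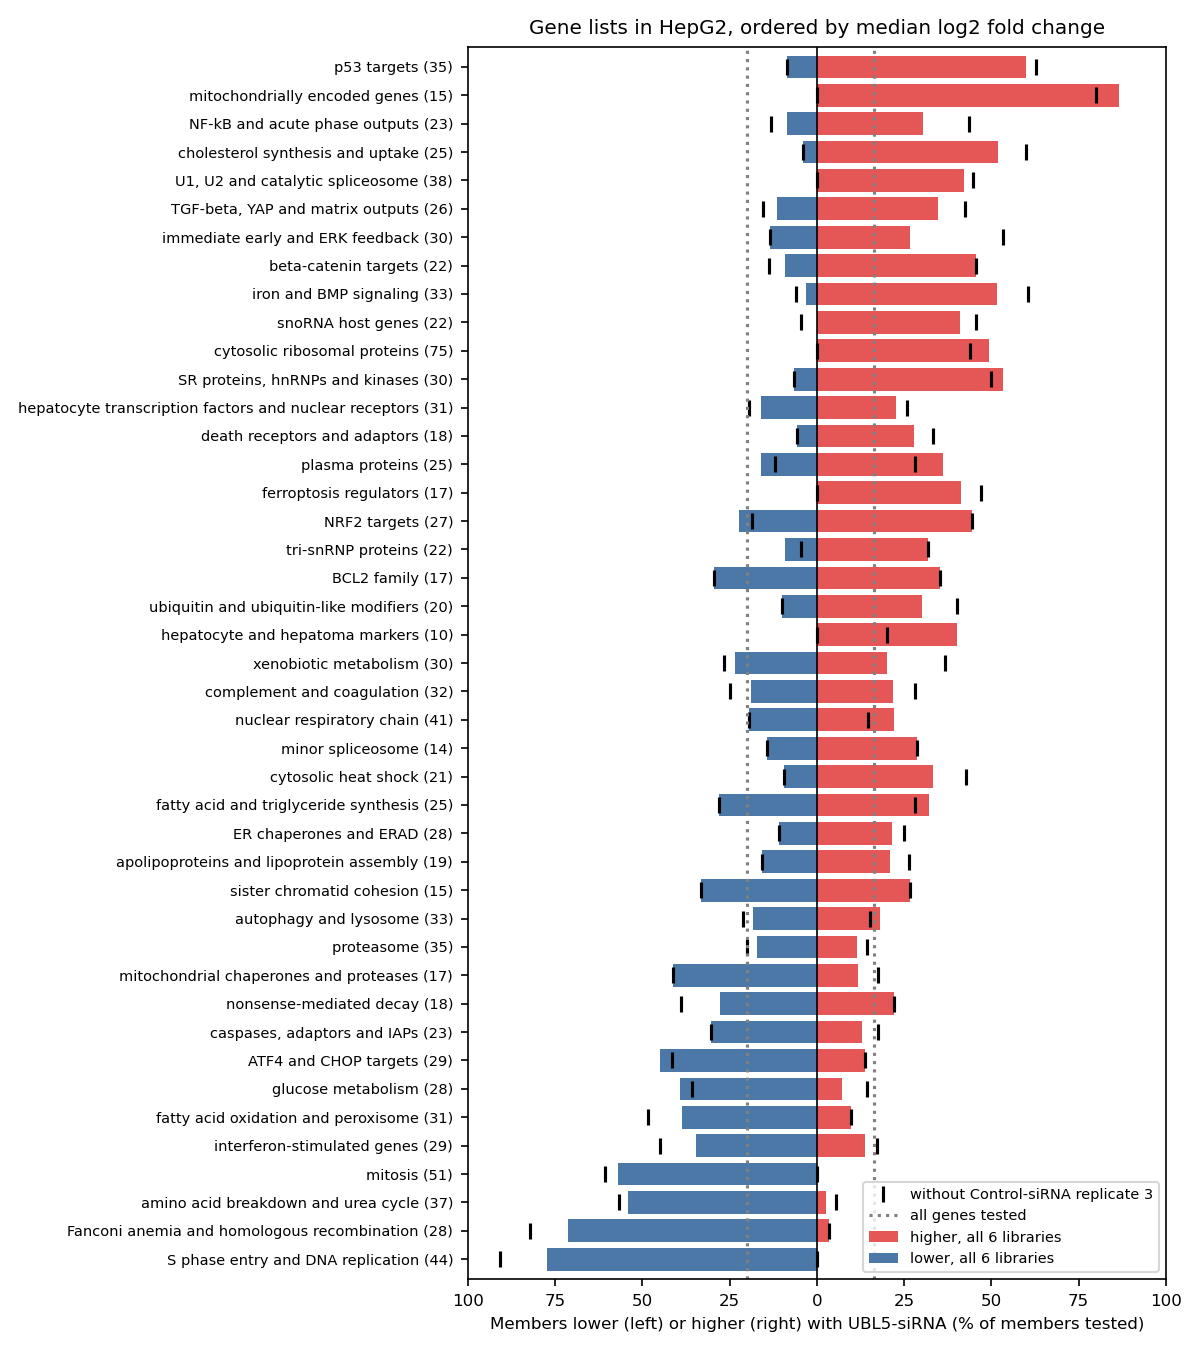
Members of each gene list that were higher (right) or lower (left) with UBL5-siRNA, as a percentage of members tested (number in brackets), ordered by the median log2 fold change with all 6 libraries and leaving out the 3 marker lists of other cell types. Bars are the fit of all 6 libraries, black ticks the fit without Control-siRNA replicate 3 and dotted lines the shares of all genes tested, 16.5% higher and 20.1% lower. S phase entry and DNA replication lie at the bottom with 34 of 44 members lower, and p53 targets at the top with 21 of 35 higher.

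**Figure D4:**
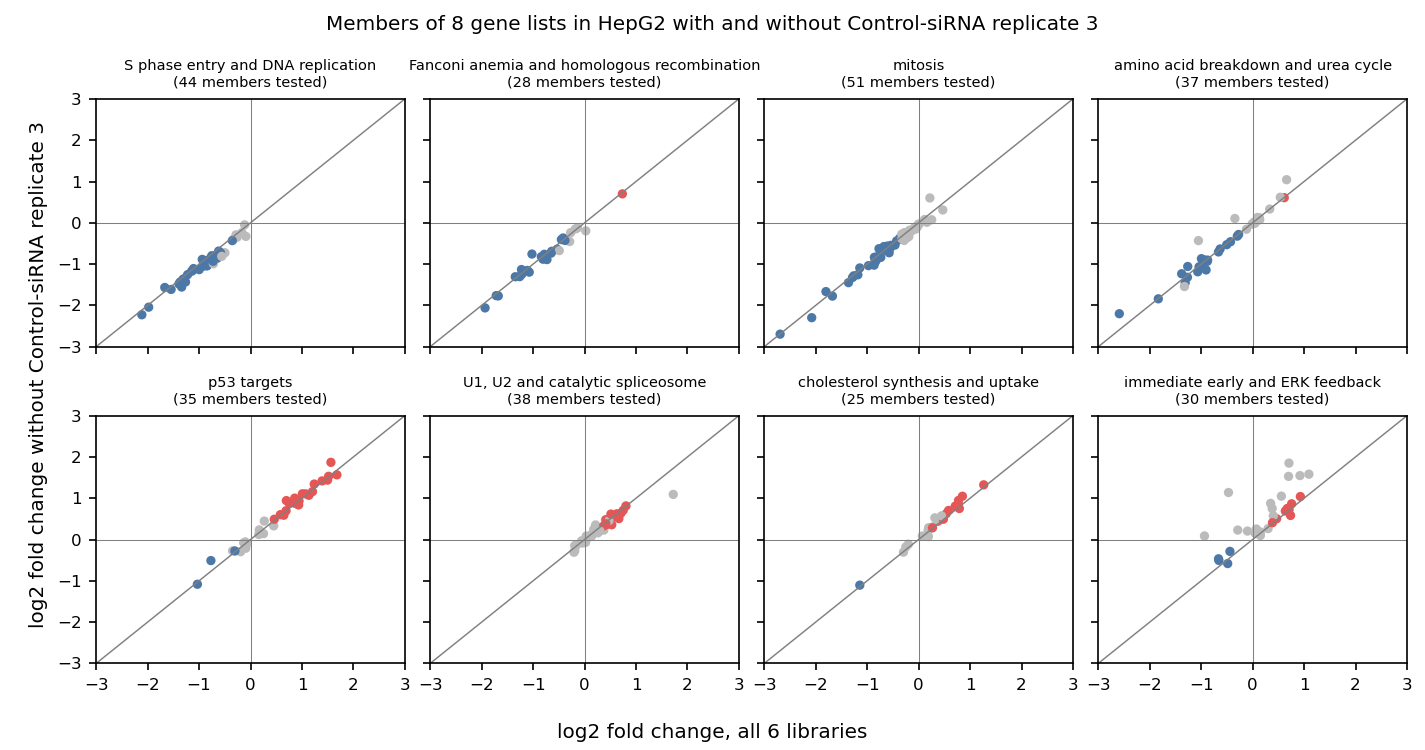
Log2 fold changes of the members of 8 gene lists with all 6 libraries (horizontal) and without Control-siRNA replicate 3 (vertical), 1 point per gene, red for genes higher, blue for genes lower and grey for genes not called with all 6 libraries. Points lie near the diagonal in the lists of replication, repair, mitosis and p53 targets, while in the immediate early list several lie above it, such as FOS at 0.71 and 1.85.

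Genes with many exons were lower more often. Exons were counted in the canonical transcript of each of the 12009 protein-coding genes tested. Of 251 genes with 1 exon, which need no splicing, 21.1% were higher and 7.97% lower, with a median log2 fold change of 0.16. Of 1655 genes with over 20 exons, 15.5% were higher and 32.0% lower, with a median of −0.12. The share lower was 14.8% at 2 exons, 15.4% at 3 to 4, 21.7% at 5 to 8, 27.1% at 9 to 12 and 26.7% at 13 to 20. Without Control-siRNA replicate 3, the shares lower were 12.4% for genes with 1 exon and 34.2% for those with over 20. Expression rose with the number of exons too, from a median of 8.34 CPM at 1 exon to 49.9 CPM above 20 exons, so the depth behind these classes differs. Among genes with a mean of at least 10 CPM, 12.1% of 124 genes with 1 exon and 34.7% of 1336 with over 20 exons were lower. Across genes, which are not independent and share the same 6 libraries, the Spearman correlation of exon number and log2 fold change was weak, at −0.119 over all 12009 genes and −0.115 without Control-siRNA replicate 3.

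**Figure D5:**
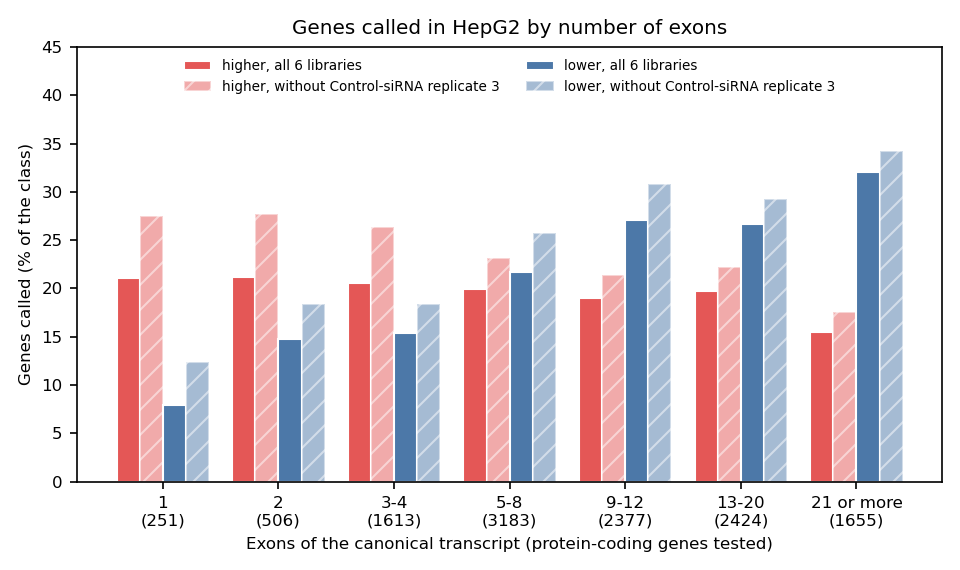
Share of protein-coding genes called higher (red) or lower (blue) with UBL5-siRNA by number of exons, with the number of genes per class in brackets. Plain bars are the fit of all 6 libraries and hatched bars the fit without Control-siRNA replicate 3. The blue bars climb from 7.97% at 1 exon to 32.0% above 20 exons, and the red bars fall from 21.1% to 15.5%.

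The libraries carried hepatocyte transcripts throughout. All 10 hepatocyte and hepatoma markers were tested, with a summed level of 53501 to 58349 CPM with Control-siRNA and 52726 to 62617 CPM with UBL5-siRNA. APOA1, ALB, FGB and HNF4A rose slightly, by 0.53, 0.24, 0.46 and 0.29, and only APOA1 and FGB were called without Control-siRNA replicate 3. The other 6 markers were not called with all 6 libraries. With the replicate block 1 marker was lower, and at most 1 was lower when a single library was left out. Only APOA1 was called in each of the fits that left out 1 library. Of 7 endothelial markers, 2 passed the filter, with a summed 3.64 to 6.45 CPM against 2.91 to 6.17 CPM. VWF, KDR, TEK and EMCN were not listed. CDH5, the cadherin of endothelial cells, had 2, 3 and 0 counts with Control-siRNA and 27, 78 and 48 with UBL5-siRNA. PECAM1, their adhesion receptor CD31, had 93, 151 and 180 counts against 39, 71 and 62, a log2 fold change of −1.01 (SE 0.327, adjusted p = 0.0391, −0.91 without C3), and its call was lost without Control-siRNA replicate 2 or any 1 of the UBL5-siRNA libraries. CLDN5, a tight junction gene, had 11, 8 and 0 counts against 0 in each UBL5-siRNA library. Of 8 leukocyte markers, 3 were tested and the defining PTPRC, CD3E, MS4A1, CD68 and ITGAM were not listed. LYZ, which accounts for nearly all of their summed 1637 to 2193 and 985 to 1263 CPM and shares 34.7% of its exon bases with other genes, fell by 0.75, and CD14 had 5, 4 and 10 counts against 107, 179 and 130. Of 7 fibroblast markers, 3 were tested, at 38.2 to 44.6 and 47.6 to 54.3 CPM, and COL1A1 rose by 1.81. COL1A2, COL3A1, DCN and LUM had 109, 99, 25 and 21 counts in UBL5-siRNA replicate 2 and 0 to 9 in each other library. Their part in the other results was not tested.

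The change in HepG2 was compared with that in Huh7 by an interaction over all 12 libraries, 15668 genes of which were tested. For 1548 genes (9.88%) the log2 fold change, sign included, was greater in HepG2 and for 1826 (11.7%) it was smaller, 21.5% in all. Without C3 these numbers were 2107 and 2192 of 15716. The p53 targets differed often, with 21 of 33 greater and 1 smaller in HepG2 (22 and 1 without C3), and so did the NF-kB outputs, with 16 of 21 greater and 0 smaller (17 of 22 and 0). Of the 44 replication genes, 23 had a lower log2 fold change in HepG2 than in Huh7 and 0 a higher one (31 and 0). E2F1 and CDC6 were among those lower. CDKN1A, which rose in HepG2, had 12.2, 16.1 and 16.7 CPM with Control-siRNA and 2.86, 2.99 and 4.32 CPM with UBL5-siRNA in Huh7, a fall of 2.13 on the log2 scale. The difference between the lines was 3.17 (SE 0.28, adjusted p = 1.53e-05), and 3.28 without C3 (adjusted p = 5.54e-06). None of the 15 mitochondrially encoded genes passed the test of the difference in either fit, which does not show that the lines acted alike there.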

How the data were processed

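Poly(A) RNA of 6 HepG2 libraries was sequenced by the study as single reads from stranded libraries. Per the labels and the submitters' processing notes, reads were aligned with STAR 2.7.6a to GRCh38 and counted with featureCounts. The featureCounts version, annotation and strand setting are not given in the sources used here, so overlapping and antisense genes are uncertain. The deposited values used here are raw counts per gene. The authors also deposited their DESeq2 1.30.0 comparison as score columns (mean and test statistic), log2 fold changes with errors, and p-values, none of which were used. No sample column was left unmatched (0).

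Groups came from the labels. Counts were filtered with filterByExpr (minimum count 10, minimum total 15), scaled by TMM and tested with the edgeR 4.0.16 quasi-likelihood test in R 4.3.3, with Benjamini-Hochberg adjustment over all genes tested and a threshold of 0.05. Totals of 19983681 to 29744471 counts per library set the precision. The interaction used all 12 libraries. Coordinates, exons and exon overlap come from GENCODE 44 on GRCh38. The HepG2 fit was tested on simulated counts. Of genes changed by 0.5, 1 and 2 on the log2 scale, 15.5%, 57.1% and 81.6% were recovered. There were 6 false calls among 15356 genes tested. A gene that did not pass may therefore still differ.

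Same-numbered libraries deviated together (Pearson r = 0.410, 0.321 and 0.340 over 9405 genes, other pairings −0.344 to −0.0449), which meets the bar set for paired numbers. The study's methods state no block, so the reported fits are unpaired and the fit with the replicate number as a block is given where it changes a call or moves a count by over 1.5 times. Other alternatives were each library left out, DESeq2 1.42.0, RLE scaling, other filters and a robust fit.

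The lists and named genes were chosen with earlier results of these data known. Named were UBL5, SART1, the genes the study's text names, the 10 highest and lowest protein-coding and 5 highest and lowest lncRNA genes called in both fits without overlap, up to 4 members a list by adjusted p, the 5 highest and lowest in Control-siRNA replicate 3, and the 3 highest and lowest between the lines. MCM2 to MCM7, CDC6, RAD51C, XPC, SPATA18, FBXO22, TP53I3, BAX, ATF4, HSPA5, CPS1, SMAD6, SMAD7, BMPR2 and CCN2 were named after their values were seen. Some genes that this rule selects are not reported here.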

Additional observations from a re-analysis of the deposited data

Results flagged for a closer look

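Among genes called in HepG2, 6 were singled out because their change differed from that in Huh7 by the interaction test of edgeR. The log2 fold change in HepG2 minus that in Huh7 was 3.77 for OR2I1P (1.54 and −2.20), 3.17 for CDKN1A (1.01 and −2.13) and 3.02 for H2AC6 (1.26 and −1.73). It was −2.67 for SH2D5 (−1.45 and 1.25), −2.66 for HIP1 (−0.87 and 1.81) and −2.56 for AKR1B10 (−0.46 and 2.13). In HepG2, the call of AKR1B10 was lost without Control-siRNA replicate 2 or 3 or UBL5-siRNA replicate 1 or 2. The lines were tested in 1 fit that shares a spread per gene, and a difference in growth or response between them was not tested.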

How the results depend on the processing

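With single libraries left out, the number of genes higher ran from 1834 to 3378, the number lower from 1985 (without UBL5-siRNA replicate 2) to 3892 (without Control-siRNA replicate 3). With the replicate number as a block, 2982 were higher and 3449 lower. The count for the HepG2 change against Huh7 change ran from 2880 to 4299 with HepG2 libraries left out and was 4338 with the replicate block. DESeq2 gave 3111 and 3187, RLE scaling 2818 and 3020, no filter on low counts 2717 and 2991, and at least 10 counts in every library 2724 and 3206. Without both libraries numbered 3 the counts were 3427 and 3743. DESeq2 without Control-siRNA replicate 3, chosen after seeing the data, gave 3253 and 3509. The log2 fold change of UBL5 stayed between −4.01 and −3.36 over the libraries left out. Of 210 named genes that were called, 197 were called in every alternative run on them, and the block lost none. The rule that chose these genes favors calls that hold. The block added calls for DUSP1, HSPA1A, MCM3, MCM6 and HSPA5. Signs turned for 2 named genes. CCN1 (0.03, called in no alternative) ran from −0.83 to 0.88 and had −0.26 and −0.24 without Control-siRNA replicate 1 or 2 and −0.83 without UBL5-siRNA replicate 3. HSPA1A (−0.28, called only with the block) ran from −1.24 to 0.66 and had 0.66 without Control-siRNA replicate 3 and 0.04 and 0.06 without UBL5-siRNA replicate 1 or 2. Counting error limits genes of few counts, and the cause of the spread in Control-siRNA replicate 3 was not tested.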
